A study of Homo sapiens with 6 samples.

Results

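The mitotic cyclins, their kinase CDK1 and the enzymes that switch this kinase on and off were examined as a set of 10 genes, CCNA2, CCNB1, CCNB2, CCNF, CDK1, CDC25B, CDC25C, WEE1, PKMYT1 and MASTL. They were chosen by gene symbol from the 23228 rows of the normalized count table, and all 10 were found in it and passed the filter on low values. The libraries came from SaOS2, an osteosarcoma cell line described by the study as null for RB and p53, that carried a Tet-inducible p21 vector in every group and was grown in DMEM with 10% FBS. In p21 OFF cells the vector was left silent (untreated, time given as 0 h, 3 libraries). In p21 ON cells it was switched on by 1 μg/ml doxycycline for 24 h (3 libraries). Cells without the vector were not analysed here under doxycycline, and what the drug does by itself therefore cannot be told apart from what p21 does. Whether both groups were harvested at the same time is not stated, so time in culture cannot be told apart from p21 either. Whether the line is 1 clone or a pool, and whether the replicates were separate cultures, is not given in the labels, so p-values measure only the spread between these libraries.

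Entry into mitosis is driven by CDK1 bound to a B-type cyclin, after cyclin A has acted in S phase and G2. The kinases WEE1 and MYT1 (encoded by PKMYT1) hold the complex inactive by phosphorylating CDK1, and the CDC25 phosphatases remove these phosphates. MASTL, also called Greatwall, acts beside CDK1 by turning ENSA and ARPP19 into inhibitors of the phosphatase PP2A-B55, which would otherwise undo the work of CDK1. Many genes of this system are transcribed late in the cell cycle, and the MuvB complexes that repress or activate them bind the CHR, a short promoter element often found near CCAAT boxes, the binding sites of NF-Y.

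RefSeq promoter windows of GRCh38.p14, from 250 bases before to 50 bases after a transcription start, were matched by symbol for 8 of the 10 genes, with 15 windows because some genes have several starts. WEE1 and PKMYT1 had no entry. Each window was searched on both strands for the CHR (TTTGAA or TTCGAA) and the CCAAT box (CCAAT), and for an E2F-type site, which was any of the letters TTCCCGC, the letters TTCGCGC, the letters TTGCCGC and the letters TTGGCGC. No other spelling of the CHR was searched, so a window without a match is not shown to lack a CHR. A CHR match was found in a window of 6 of the 8 genes, a CCAAT match in 7 and an E2F-type match in 4. Of all 35116 windows in the RefSeq table, 16.4% held the CHR letters, 34.6% CCAAT, 13% an E2F-type site and 6.38% both CHR and CCAAT. Among the 15 windows of these genes 8 held CHR and 7 held both. Windows of the same gene can overlap: CDC25C starts 3 and 4 share a CHR site, and the CDK1 starts share 2 E2F-type sites. The 15 windows are therefore not independent. Counts by gene, from up to 4 windows each, cannot be set against shares of single windows. Stretches of the 4 cyclin genes, each with a single start, are given first. They read 5′ to 3′ on the strand of the gene, and capitals mark CHR and CCAAT matches of either strand.
CCNB2 (chr15:59105016-59105145, plus strand): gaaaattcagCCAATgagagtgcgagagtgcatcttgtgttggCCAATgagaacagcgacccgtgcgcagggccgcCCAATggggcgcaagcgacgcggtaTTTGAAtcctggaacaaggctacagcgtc
CCNB1 (chr5:69167020-69167149, plus strand): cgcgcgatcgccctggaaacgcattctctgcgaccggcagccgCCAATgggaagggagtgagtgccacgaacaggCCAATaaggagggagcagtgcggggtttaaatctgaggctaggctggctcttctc
CCNA2 (chr4:121823884-121824013, minus strand): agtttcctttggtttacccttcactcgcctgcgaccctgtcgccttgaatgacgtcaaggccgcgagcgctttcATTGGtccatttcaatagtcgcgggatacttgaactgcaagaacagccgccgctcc
CCNF (chr16:2429197-2429376, plus strand): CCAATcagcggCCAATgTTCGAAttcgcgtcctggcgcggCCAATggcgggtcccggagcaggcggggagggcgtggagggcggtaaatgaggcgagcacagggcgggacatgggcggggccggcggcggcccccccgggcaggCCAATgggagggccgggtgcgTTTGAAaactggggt
The CCNB2 stretch, which ends at the base before the start, held CCAAT at -120, -87 and -54 and the CHR at -29. CCNB1 held CCAAT at -87 and -55 and CCNA2 1 inverted box at -56, and neither window held TTTGAA or TTCGAA. CCNF held 2 CHR matches, at -233 and -85, with 4 CCAAT matches, all further upstream than the CHR of CCNB2.

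Short stretches of 30 bases show the CHR letters of the kinase, phosphatase and Greatwall genes in the same way.
CDK1, start 2 of 2 (chr10:60778397-60778426, plus strand): ctgATTGGctgcTTTGAAagtctacgggct
CDC25C, start 4 of 4 (chr5:138331817-138331846, minus strand): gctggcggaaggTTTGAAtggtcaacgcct
CDC25B, start 3 of 4 (chr20:3796260-3796289, plus strand): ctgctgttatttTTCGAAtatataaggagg
MASTL, start 1 of 1 (chr10:27155342-27155371, plus strand): gcggagcctcacTTTGAAcccagttggcgg
These matches began at -69 for CDK1, -30 for CDC25C, -38 for CDC25B and at base 3 of the transcript for MASTL. CDK1 start 2 also held CHR letters at -13 and 10, and 2 E2F-type sites at -175 and -127. A match describes the letters of a window and was not tested for binding or for a link to the changes in expression.

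**Figure D1:**
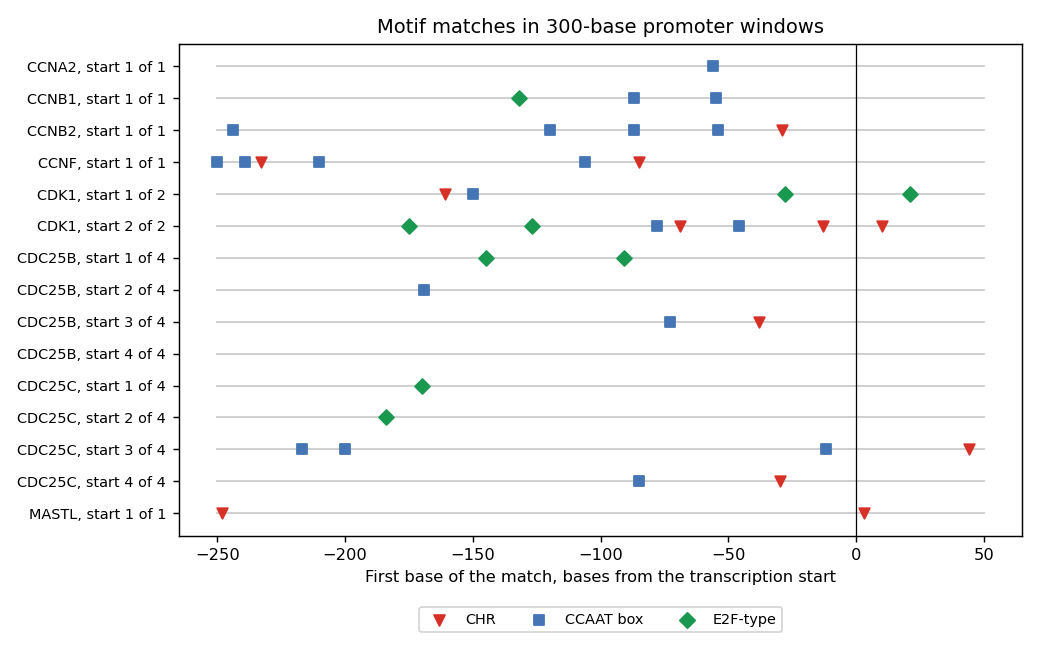
Motif matches in the 15 RefSeq windows of 8 genes; the horizontal axis is the distance in bases of the first base of a match from the transcription start, and symbols mark the CHR, the CCAAT box and E2F-type sites. CHR matches lay at -29 in CCNB2, -30 in CDC25C start 4 and -38 in CDC25B start 3, and CCNB1 and CCNA2 held neither TTTGAA nor TTCGAA.

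The libraries held 12795490 to 21975045 reads on genes with p21 OFF and 12918390 to 16630552 with p21 ON. CDKN1A, the p21 gene, checked the induction: it had 1257, 1187 and 1355 normalized counts with p21 OFF and 40470.4, 43863 and 46739 with p21 ON, so no library went against its label, although reads of the vector and of the gene of the cells are counted together. Of 8 osteoblast markers, 7 passed the filter, ALPL and SPARC among them with 35363 to 38901 and 19220 to 20306 normalized counts, COL1A2 was nearly absent with at most 4.87, and IBSP alone was called (log2 fold change -0.38, limma adjusted p = 0.0264). Of 11 markers of other cell types, KRT20 was at 0 in every library, 3 passed the filter (KRT5, PECAM1 and EPCAM, the last with the most, 292 to 374), and the summed level of these markers was 354 to 423 with p21 OFF and 346 to 384 with p21 ON. Over the 13255 genes tested with limma (Benjamini-Hochberg adjusted p under 0.05), 12.7% were lower and 10.5% higher in p21 ON cells, 1681 and 1393 genes, or 23.2% in either direction. Scaling by library size alone gave 1194 lower and 2034 higher, without p21 ON replicate 1 the counts were 887 and 695, and without p21 ON replicate 3 they were 1076 and 739.

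All 10 genes fell when p21 was switched on, against the 12.7% of genes tested that were called lower. None rose, the count of members higher in limma before adjustment (p under 0.05) was also 0, and edgeR and DESeq2 on the recovered reads also called 10 lower and 0 higher. In each of the 10 every p21 ON library lay below every p21 OFF library, which held for 21.3% of the genes tested (the reverse held for 19.1%). For a single gene the exact two-sided permutation test then gave p = 0.1, the smallest that 3 libraries against 3 allow. The median log2 fold change of the set was -1.38, beside 0.01 for all genes tested, and its members ran from -1.55 for CDC25C to -0.31 for WEE1. They fell into a group of 6 with log2 fold changes of -1.55 to -1.37 (CDC25C, CCNA2, CCNB1, CCNB2, CDK1 and PKMYT1), MASTL and CDC25B with intermediate falls, and CCNF and WEE1 with the smallest. A log2 fold change of -1 or below was reached by 1.15% of all genes tested and by MASTL and the first 6. In RNA from whole cultures, fewer cells in G2 and mitosis and less of these transcripts per cell cannot be told apart.

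**Figure D2:**
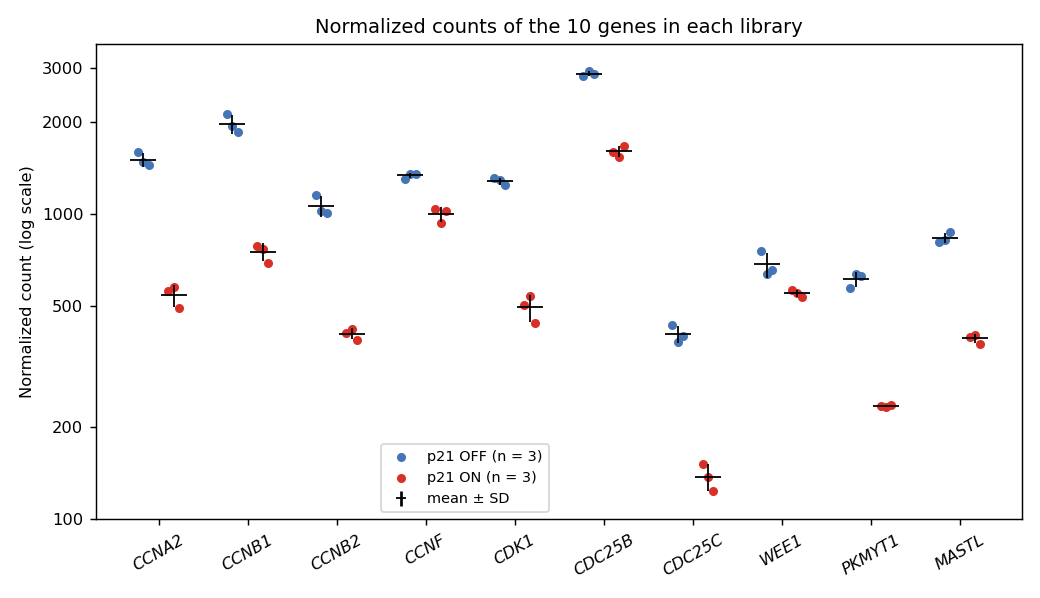
Normalized counts on a log axis for each of the 10 genes, with 1 point per library (blue, p21 OFF; red, p21 ON; 3 libraries each) and black bars for the mean ± SD. In each gene all red points lie below all blue points, and the gap is narrowest for WEE1, at 562 against 636.

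The cyclins that activate CDK1 fell to under 40% of their level without p21, and CCNF fell less. CCNA2, the gene of cyclin A2, which binds both CDK2 and CDK1, lies on chromosome 4 of GRCh37 from 122737599 to 122745038. Untreated libraries held 1599, 1474 and 1442 normalized counts of it and induced libraries 561, 575 and 491. The groups were far apart, and the mean went from 1505 ± 82.8 to 543 ± 44.9 (SD, n = 3 each). On the log2 scale it changed by -1.47 (SE 0.07, limma adjusted p = 8.38e-11), or 36.0% of the p21 OFF level.

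CCNB1 encodes cyclin B1, the main partner of CDK1 at mitotic entry, and lies on chromosome 5 from 68462962 to 68474072. Its p21 OFF libraries held 2125, 1936 and 1849 normalized counts and its p21 ON libraries 787, 770.1 and 692. The lowest p21 OFF library lay far above the highest p21 ON library, and CCNB1 fell by 1.39 on the log2 scale (SE 0.07, limma adjusted p = 1.00e-10), to 38.1% of the p21 OFF mean. CCNB2, on chromosome 15 from 59397325 to 59417244, encodes cyclin B2, the Golgi-associated B-type cyclin. It had 1157, 1019 and 1010.4 normalized counts with p21 OFF and 409, 422 and 388 with p21 ON. Its log2 change of -1.38 (SE 0.08, limma adjusted p = 1.92e-10) left 38.2% of the p21 OFF mean, close to the share left of CCNB1.

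Cyclin F, encoded by CCNF on chromosome 16 from 2479395 to 2508855, is a cyclin by sequence that binds no CDK and serves as the substrate receptor of an SCF ubiquitin ligase. Its p21 OFF libraries held 1302, 1352 and 1355 normalized counts and its p21 ON libraries 1039.6, 932 and 1019. The groups did not overlap, but the nearest values, 1039.6 and 1302, were closer than in the other cyclins, and 74.6% of the mean remained. The change on the log2 scale was -0.42 (SE 0.07, limma adjusted p = 0.000165).

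CDK1, the catalytic subunit, fell as far as the B-type cyclins. The gene lies on chromosome 10 from 62538089 to 62554610. It had 1309.9, 1291 and 1245 normalized counts with p21 OFF and 503, 539.8 and 440.0 with p21 ON. The p21 OFF libraries were close to each other (coefficient of variation 2.62%) and the p21 ON libraries less so (10.2%, the widest spread of any of the 10 genes in a group). The mean fell from 1282 ± 33.6 to 494 ± 50.5 (SD, n = 3 each), which on the log2 scale is -1.38 (SE 0.08, limma adjusted p = 2.51e-10).

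The phosphatases that remove the inhibitory phosphates of CDK1 both fell, CDC25C more than CDC25B. CDC25B, on chromosome 20 from 3767419 to 3786768, is held to start the activation of CDK1 in G2. Its libraries held 2833, 2939 and 2871 normalized counts with p21 OFF and 1594, 1541 and 1671 with p21 ON. It kept 55.6% of its level, a log2 fold change of -0.85 (SE 0.06, limma adjusted p = 4.83e-09). CDC25C, on chromosome 5 from 137620958 to 137674044, acts in the loop by which active CDK1 raises its own activity. It had 433, 380.4 and 399 normalized counts with p21 OFF and 151, 138 and 124 with p21 ON, and the fewest reads of the 10 genes, 113 in the lowest library. It fell the most of the 10, to 0.341 times its level, a log2 change of -1.55 (SE 0.10, limma adjusted p = 1.74e-09), and stood at place 10 among all genes tested, counted from the largest fall.

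The inhibitory kinases parted: PKMYT1 fell with the cyclins and WEE1 little. WEE1, a nuclear kinase, lies on chromosome 11 from 9595217 to 9615004. Its libraries gave 756, 636 and 658 normalized counts with p21 OFF and 562, 551 and 535 with p21 ON. Replicate 1 stood above the other p21 OFF libraries, and the nearest values of the groups were 636 and 562. The mean went from 683 ± 64.0 to 549 ± 13.7 (SD, n = 3 each), 80.4% of the p21 OFF level, and a log2 change of -0.31 (SE 0.08, limma adjusted p = 0.00859). When p21 OFF replicate 1 was left out the log2 change was -0.24 (limma adjusted p = 0.0186), and without p21 ON replicate 3 the adjusted p was 0.0476.

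PKMYT1, on chromosome 16 from 3018025 to 3030480, encodes the membrane-bound MYT1 kinase. Its p21 OFF libraries held 571, 636 and 627 normalized counts and its p21 ON libraries 235, 233 and 238. The p21 ON libraries were the most alike of any gene of the set, with a coefficient of variation of 1.03%. PKMYT1 fell to 38.5% of its mean, a log2 fold change of -1.37 (SE 0.08, limma adjusted p = 4.30e-10).

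MASTL, the Greatwall kinase gene on chromosome 10 from 27443753 to 27476882, fell to 46.9% of its p21 OFF level. It had 808, 823 and 871 normalized counts with p21 OFF and 397, 402 and 375 with p21 ON. The mean went from 834 ± 33.3 to 391 ± 14.2 (SD, n = 3 each), which on the log2 scale is -1.09 (SE 0.07, limma adjusted p = 2.50e-09).

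**Figure D3:**
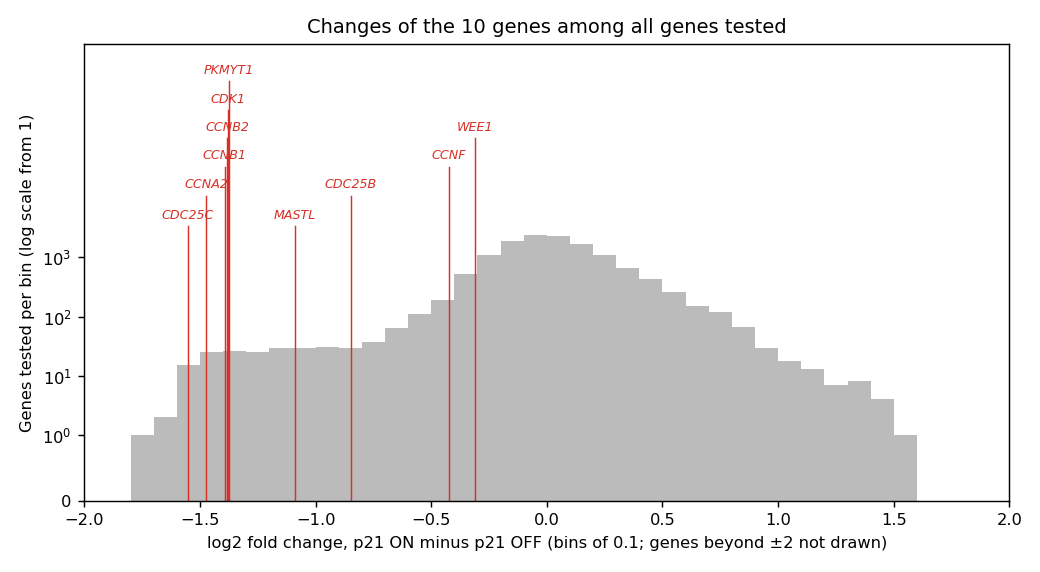
Distribution of the log2 fold change (p21 ON minus p21 OFF) over the genes tested, in bins of 0.1 with the number of genes per bin on an axis that is linear from 0 to 1 and logarithmic above; red lines mark the 10 genes. From CDC25C at -1.55 to PKMYT1 at -1.37 the lines stand in the far left tail, and CCNF at -0.42 and WEE1 at -0.31 lie at the edge of the main body.

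Exons of CCNA2, CCNF, CDC25C, PKMYT1 and MASTL overlap exons annotated on the opposite strand, those of EXOSC9 (CCNA2), FAM53C (CDC25C), KREMEN2 and PAQR4 (PKMYT1) and ACBD5 and YME1L1 (MASTL) among them, and the strand setting of the counting is not stated, so reads of the overlapping exons cannot be told apart. Exons of WEE1 overlap those of RN7SL56P and snoU13 on the same strand, which no strand setting can separate. Pseudogene copies are annotated for CCNB2 (CCNB2P1) and WEE1 (WEE1P1 and WEE1P2), so the values of these genes carry that uncertainty.

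Per kilobase of the canonical GENCODE transcript, on a scale of normalized counts per kb, the order of the levels changed with p21. With p21 OFF the highest levels were those of CCNB1 (971 ± 69.6, SD, n = 3) and CDC25B (924 ± 17.1), whose libraries overlapped. CCNB2 (714 ± 55.2) and CDK1 (679 ± 17.8) came next and also overlapped each other, then CCNA2 (548 ± 30.1). CCNF (316 ± 6.99) overlapped PKMYT1 (297 ± 16.9), and MASTL (202 ± 8.06), CDC25C (193 ± 12.8) and WEE1 (190.4 ± 17.8) were not set apart by their libraries. With p21 ON, CDC25B (514 ± 20.99) stood above CCNB1 (369 ± 25.0) without overlap. The level of CCNF (236 ± 13.5) now lay above that of CCNA2 (197 ± 16.3), and WEE1 (153 ± 3.82) above PKMYT1 (114 ± 1.17), MASTL (94.7 ± 3.44) and CDC25C (65.7 ± 6.64), each step without overlap. CCNB2 (273 ± 11.5) and CDK1 (262 ± 26.7), and CDK1 and CCNF, overlapped. Exon usage other than that of the canonical transcript would change these levels per kb. The fold changes between groups do not depend on the length used, but a shift in exon usage between the groups was not examined.

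Ratios of 2 genes within a library, which do not depend on how libraries are scaled, were compared for 10 pairs, and in 7 of them the p21 OFF and p21 ON libraries did not overlap. The share of such pairs among all genes tested was not counted, so 7 of 10 has no reference to be read against. Several pairs share CCNB1, WEE1 or CDC25C and are not independent. With 3 libraries against 3 no pair could pass 0.05: these 7 had p = 0.1 in the exact two-sided permutation test, 0.143 after Benjamini-Hochberg adjustment over the 10 pairs. CCNB1 kept its proportion to CCNB2, with log2 ratios of 0.88, 0.93 and 0.87 with p21 OFF and 0.94, 0.87 and 0.83 with p21 ON, a difference of -0.01 ± 0.04 (standard error) that was smaller than the spread between libraries. The ratio of CCNB1 to CDK1 differed by -0.01 ± 0.06 (standard error), again within that spread. CCNB1 to CCNA2 differed by 0.08 ± 0.03 (standard error), a small rise without overlap. Its log2 ratios were 0.41, 0.39 and 0.36 with p21 OFF and 0.49, 0.42 and 0.49 with p21 ON. Against CCNF, CCNB1 went from log2 ratios of 0.71, 0.52 and 0.45 to -0.40, -0.28 and -0.56, so CCNB1 had more normalized counts than CCNF in every p21 OFF library and fewer in every p21 ON library.

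Ratios among the enzymes that act on the inhibitory phosphates of CDK1 were set against each other in the same way. The log2 ratio of CDC25C to WEE1 was -0.80, -0.74 and -0.72 with p21 OFF and -1.89, -1.99 and -2.11 with p21 ON, a difference of -1.24 ± 0.07 (standard error), or 0.423 times the p21 OFF ratio. For CDC25B to WEE1 the difference was -0.54 ± 0.10 (standard error), or 0.69 times. The log2 ratio of PKMYT1 to WEE1 was -0.40, 0.00 and -0.07 with p21 OFF and -1.25, -1.24 and -1.17 with p21 ON. CDC25C to PKMYT1 differed by -0.18 ± 0.14 (standard error), with overlapping libraries and p = 0.4 in the exact permutation test, and by -0.08 without p21 OFF replicate 1 and -0.10 without p21 ON replicate 3. CDC25C fell more than CDC25B, with a difference of -0.70 ± 0.13 (standard error), and MASTL less than CDK1, with 0.29 ± 0.08.

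**Figure D4:**
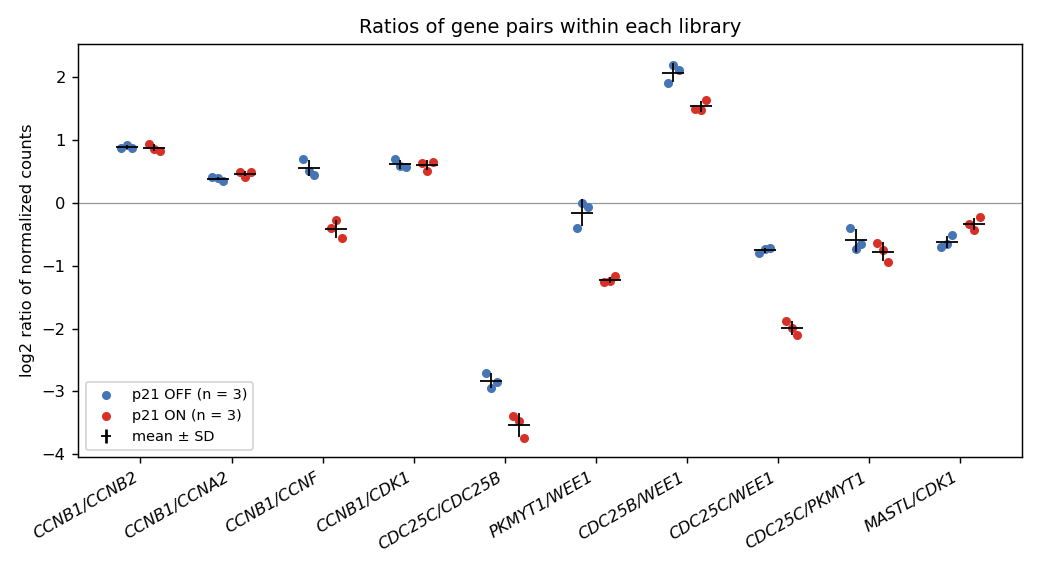
Log2 ratios of normalized counts for 10 gene pairs, 1 point per library (blue, p21 OFF; red, p21 ON; 3 each) with the mean ± SD in black. CCNB1/CCNB2 and CCNB1/CDK1 overlap between the groups, while PKMYT1/WEE1 and CDC25C/WEE1 differ by -1.06 and -1.24.

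In the study's own cell cycle lists, CCNA2, CCNB1, CCNB2, CCNF, CDC25B, CDC25C and WEE1 stand among the high-stringency G2/M genes, CDK1 among the low-stringency G2/M genes, and PKMYT1 and MASTL among the low-stringency G1/S genes. These lists come from other cell cycle data sets, not from these libraries. Of 520 low-stringency G1/S genes tested under the same symbol, whose log2 fold changes had a median of 0.005, PKMYT1 had the second largest fall (place 2) and MASTL place 14. Of 98 high-stringency G2/M genes, with a median of -1.15, CDC25C had place 4, CCNA2 10, CCNB1 18 and CCNB2 20, while CDC25B had place 61, CCNF 79 and WEE1 84. CDK1 had place 39 among 403 low-stringency G2/M genes.

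The genes that act with these 10 were taken as a list of 33, of which 27 passed the filter on low values: 18 were called lower, none was called higher and 9 were not called, beside 12.7% of all genes lower and 10.5% higher. Before adjustment, limma gave p under 0.05 for 20 lower and 0 higher, edgeR with TMM and DESeq2 called 18 lower and 0 higher, and the median log2 fold change was -0.24. Without p21 ON replicate 1, 12 were called lower. Of the 18, 12 were called lower in all 17 other settings.

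CKS1B and CKS2, the small subunits that dock on CDK1, fell with it, with log2 fold changes of -1.34 and -1.32 (limma adjusted p = 3.86e-07 and 5.03e-10). The normalized count of CKS2 was 912 ± 51.8 with p21 OFF and 365 ± 27.4 with p21 ON (SD, n = 3 each). The kinases that push cells into mitosis fell as well: PLK1, which phosphorylates CDC25C and WEE1, with a log2 fold change of -1.44, AURKA, which activates PLK1, with -1.32, and BORA, the cofactor of that step, with -0.78. CDC20 and FZR1, the activators of the ligase that degrades mitotic cyclins, had log2 fold changes of -1.55 and -0.42. CHEK1 and CHEK2, the checkpoint kinases that restrain CDC25, had -0.43 and -1.04.

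CDC25A, the phosphatase of the same family that also acts at the start of S phase, had a normalized count of 434 ± 7.94 with p21 OFF and 326 ± 8.09 with p21 ON (SD, n = 3 each), which on the log2 scale is -0.41. The other relatives were below the filter, CCNA1 and WEE2 with at most 2 reads in a library and CCNB3 with 3 to 8. Near this floor CCNB3 had 3.77, 4.69 and 2.96 normalized counts with p21 OFF and 9.31, 8.53 and 7.60 with p21 ON. These CCNB3 values were higher without overlap, but the change was not tested, and the groups overlapped for CCNA1 and WEE2. For the CDK-activating kinase, which phosphorylates the activating site of CDK1, no subunit was called, with log2 fold changes of -0.11 for CDK7, -0.10 for CCNH and -0.05 for MNAT1, the last of which turned positive (0.07) without p21 OFF replicate 1. The substrates of MASTL were not called either: ENSA had 3590.1 ± 178 and 3317 ± 65.0 and ARPP19 2171 ± 51.6 and 2291 ± 55.9 normalized counts (SD, n = 3 each) with p21 OFF and p21 ON.

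Subunits of PP2A-B55, the phosphatase that opposes CDK1, had small changes. PPP2R2D, a B55 regulatory subunit, had a log2 fold change of -0.46, and PPP2CB, PPP2R1B, PPP2CA and PPP2R1A had -0.28, -0.24, -0.24 and -0.19. PPP2R2A was not called with -0.21 (limma adjusted p = 0.0613), and PPP2R2B and PPP2R2C were below the filter. Apart from PPP2R2D these subunits lost or gained their call in 3 to 6 of the 17 other settings. Of the 14-3-3 genes, whose products hold phosphorylated CDC25 in the cytoplasm, YWHAE (-0.37), YWHAQ (-0.21) and YWHAZ (-0.17) were called lower, YWHAB (-0.14), YWHAH (-0.12) and YWHAG (-0.05) were not called, and SFN was below the filter. The calls of YWHAQ and YWHAZ were lost in 2 and 7 settings.

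**Figure D5:**
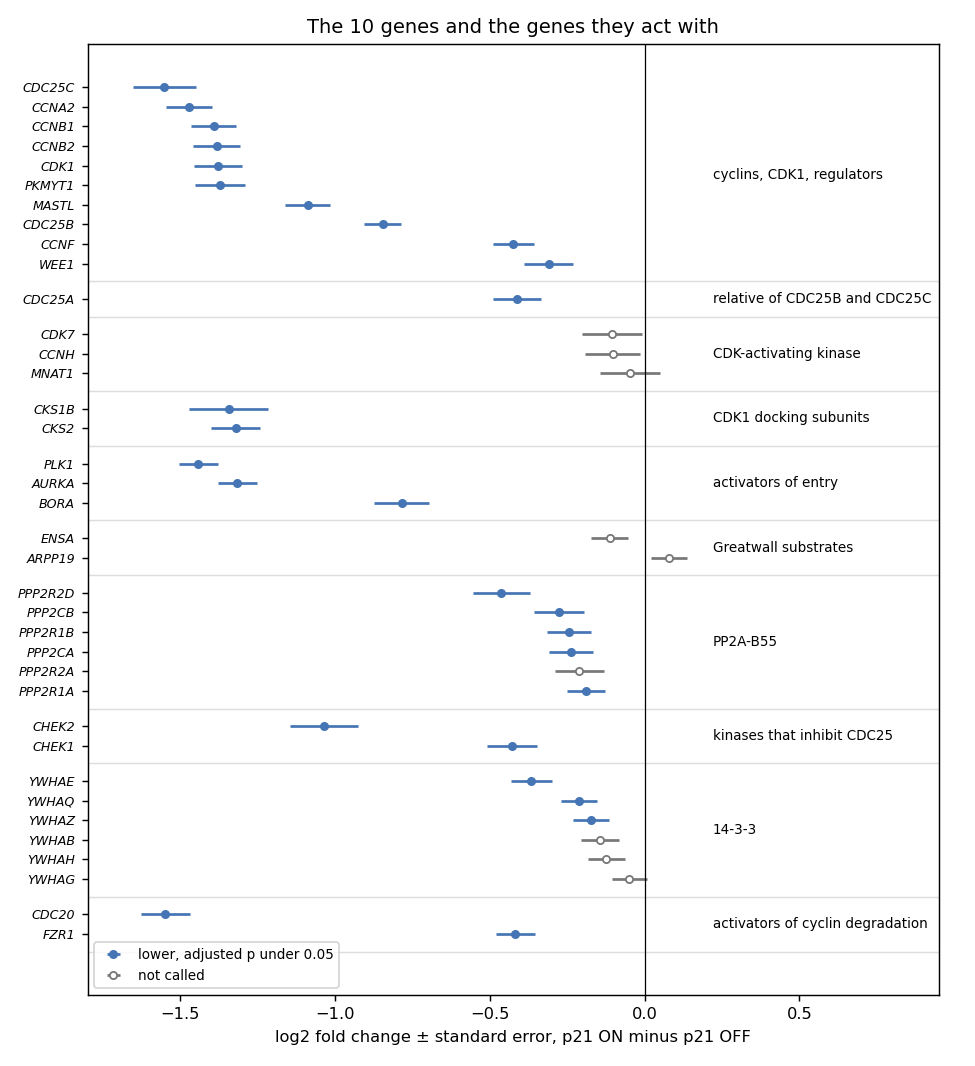
Log2 fold change ± standard error (p21 ON minus p21 OFF, 3 libraries each) for the 10 genes and for the 27 genes of the list that passed the filter, grouped by role; filled points were called lower at an adjusted p under 0.05 and open points were not called. CKS1B, CKS2, PLK1, AURKA and CDC20 lie between -1.55 and -1.32 beside the cyclins, and the CDK-activating kinase and the MASTL substrates lie near 0.

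The cyclins and kinases of G1 moved the other way or were not called. Of 8 genes 7 were tested, 5 were called higher and none lower (10.5% and 12.7% of all genes tested), the median of their log2 fold changes was 0.39, and CCND2 was at 0 in every library. CCNE2, CCND1 and CCNE1 had log2 fold changes of 0.81, 0.74 and 0.73, CDK6 0.39 and CCND3 0.24. The call of CCND3 was lost without p21 OFF replicate 3 and without p21 ON replicate 3. CDK2, the partner of cyclins E and A, had -0.09 (limma adjusted p = 0.282) and CDK4 -0.13 (limma adjusted p = 0.15), so among the kinase subunits CDK1 was the one called lower. Before adjustment, limma gave p under 0.05 for 0 of these G1 genes in the lower direction, and edgeR and DESeq2 did not call CDK2 or CDK4 either.

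Among 10432 other genes whose mean reached 100 normalized counts, those with a profile most like the mean of the 10 were TPX2, CCDC99, RRM2, LIN9 and PRC1. Likeness was the root mean square distance between log2 values centred on each gene's own mean over the 6 libraries, 0.023 for TPX2 and 0.038 for PRC1. Their log2 fold changes were -1.16, -1.08, -1.11, -1.09 and -1.18. With 6 libraries in 2 groups, the distance mainly measures the difference between the groups.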

How the data were processed

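Poly(A) RNA of 6 SaOS2 libraries was sequenced as single-end reads from stranded libraries. Per the labels and methods, the authors used STAR (genome hg19) for mapping, HTSeq for gene counts and DESeq2 for normalization (versions and strand setting not given in the sources used here). What they deposited is a table of normalized counts (unit: signal) with 1 value for each gene in each library. Because all values (100%, tolerance 0.001) were multiples of 1 step per library, the reads behind them could be recovered.

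The test was limma 3.58.1 in R 4.3.3 (lmFit, then eBayes with trend) without covariates. It ran on log2 of the normalized count plus a pseudocount of 1, for genes whose mean reached 10, and p-values were adjusted by Benjamini-Hochberg (threshold 0.05). All fold changes refer to this scale, on which those of low genes come out too small. Alternatives were count tests on the recovered reads (edgeR 4.0.16, DESeq2 1.42.0, limma-voom), TMM or library size scaling, pseudocounts of 0.1 and 10, other filters, a replicate block and each library left out. On simulated counts for this comparison (13247 genes), 98% to 100% of genes changed by 1 on the log2 scale and 83.7% to 86% of those changed by 0.5 were called. Of the unchanged genes 11 were called. Every simulated gene had the same fixed spread between libraries beyond counting noise, which was not estimated from these data. These shares therefore hold for that setting only. Gene positions are from GENCODE release 44 on GRCh37, while the promoter windows and stretches are on GRCh38.p14. The 10 genes and the lists were chosen with earlier results of these data known. Named were all 10 genes, the list genes that passed the test (others with their values), CDKN1A, the G1 cyclins and kinases, and the 5 nearest profiles.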

Additional observations from a re-analysis of the deposited data

How the results depend on the processing

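All 10 genes were called lower and none higher in each of the 17 alternatives. Their log2 fold changes ranged from -1.62 to -1.48 for CDC25C and from -0.36 to -0.24 for WEE1, whose adjusted p reached 0.0476 at most. Leaving out 1 library gave 887 to 1660.0 genes lower and 695 to 1486 higher over all genes tested, against 1681 and 1393. The lowest counts were those without p21 ON replicate 1 (887 and 695), and without p21 ON replicate 3 they were 1076 and 739. These fits rest on fewer libraries, and the lists then held 12 and 13 genes called lower, against 18. Library size scaling gave 1194 lower and 2034 higher (63.0% of calls higher, against 45.3%) and moved the median of all genes from 0.01 to 0.05. Each ratio difference moved by less than the larger of its 2 group SDs. With 1 of 3 libraries left out, or with the replicate block, no other outcome was possible, so this says nothing about stability there. The ratio difference of PKMYT1 to WEE1 was -1.19 without p21 OFF replicate 1, against -1.06. The small differences of CCNB1 to CCNB2 (-0.04 to 0.01 with 1 library left out) and of CCNB1 to CDK1 (-0.04 to 0.03) turned sign.

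Same-numbered libraries did not deviate together (correlations -0.06, -0.02 and -0.05), so the number was not taken as a pairing. With the replicate block, 1513 genes were lower and 1407 higher, all 10 genes were called lower, and 16 of the list genes were.

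The smallest value of the set, 113 reads for CDC25C, limits precision more than the others, and of changes of 0.5 on the log2 scale in the simulated counts 83.7% to 86% were called, while smaller changes were not simulated.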

Other observations

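Within a condition the 10 genes did not share 1 order of the libraries. Among the p21 OFF libraries, replicate 1 held the highest normalized count for 6 genes (CCNA2, CCNB1, CCNB2, CDK1, CDC25C and WEE1) and the lowest for the other 4 (CCNF, CDC25B, PKMYT1 and MASTL). Among the p21 ON libraries, replicate 3 was lowest for 7 genes (CCNA2, CCNB1, CCNB2, CDK1, CDC25C, WEE1 and MASTL) and highest for CDC25B and PKMYT1. The coefficient of variation within a group ran from 1.03% to 10.2%.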
